A study of Mus musculus with 8 samples.

Results

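The genes described here are 34 mouse genes of fatty acid oxidation in mitochondria and peroxisomes, measured in epididymal fat, a visceral depot attached to the epididymis. They were taken as a list of gene symbols, and a probe set was used where the array annotation gave it 1 symbol and that symbol was on the list. Of the 45101 probe sets on the array, 65 met this rule, for 33 of the 34 genes. The probe set of Cpt1b, the carnitine palmitoyltransferase typical of muscle, is shared with other genes in the annotation, so Cpt1b has no value. Acot1, a cytosolic acyl-CoA thioesterase, lay at a signal of 20.4 to 51.0 on the 8 arrays and did not pass the filter on dim probe sets. The other 32 genes were tested among 11232 genes in all, each through its brightest probe set, and every count below is of these 32.

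The 4 groups held 2 male C57BL/6J mice each, with 1 array per mouse, and every mouse was 6 weeks old when bought. The telmisartan group and the candesartan group ate a high-fat diet (HFD, 30% of calories from fat) for 24 weeks and then took their drug in the drinking water at about 3 mg/kg/day for 5 weeks. The HFD group ate the same diet and took no drug, and the chow group got 10% of its calories as fat. Telmisartan and candesartan block the angiotensin II type 1 receptor and are used against high blood pressure, and telmisartan is also known as a partial activator of the nuclear receptor PPARγ. The HFD group is the control of both drug groups, so their comparisons with it share arrays.

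Fatty acid oxidation shortens acyl chains from one end, releasing acetyl-CoA and reduced electron carriers in each round. Long chains enter mitochondria through the carnitine shuttle, whose gate is Cpt1a, and very long or branched chains are first shortened in peroxisomes. PPARα and its coactivator PGC-1α switch many of these genes on in liver, muscle and brown fat. White fat mainly stores and releases fatty acids, and its capacity to burn them is low beside that of those tissues.

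Signal below means the linear signal after all arrays were brought to the same trimmed mean. It depends on the probe set and was not compared between genes. Adipocyte markers were bright on all arrays, and the 6 of 8 with a probe set of 1 symbol all passed the filter. Their summed signal was 67727 and 71477 with HFD, against 65565 and 76260 with chow. Singly, 2 of the 6 lay above chow with HFD and 4 below. Macrophage markers, 8 of 8 past the filter, summed to 24467 to 35722 in the 2 drug groups, to 30220 and 30861 with HFD, and to 10862 and 13007 with chow. Endothelial markers summed to 1759 to 2093 in the 2 drug groups, to 2037 and 2004 with HFD, and to 3785 and 2894 with chow. In HFD against chow 7 of 8 macrophage markers were called higher, where 5.15% of all genes were. Of the endothelial markers 3 of 5 were called lower, where 2.95% of all genes were. Ucp1, which defines brown fat, 5 of 6 skeletal muscle markers and the 3 epididymis markers with a probe set did not pass the filter. In whole fat, fewer cells of a type and less RNA per cell cannot be told apart. The part of these cell types in the results below was not tested.

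HFD against chow answers how the diet altered these genes. Pdk4, the kinase that turns off pyruvate dehydrogenase and so spares glucose when fat is burned, rose, and so did Cpt1a on its brightest probe set. No member fell past the threshold (3 did with quantile normalization and 4 with a term for the replicate number). Most members nevertheless lay lower, with 23 of 32 below zero and 9 above. Their median log2 fold change was −0.29, against −0.01 over all genes tested. The threshold was an adjusted p under 0.05 in limma (Benjamini-Hochberg, all 11232 genes). By it, 2 members were called higher, where 5.15% of all genes were, and 0 were called lower, where 2.95% were. At an unadjusted p under 0.05 there were 2 higher (11.9% of all genes) and 12 lower (12.3% of all genes). Both HFD arrays lay above both chow arrays for 3 members, where 27.8% of all genes did so, and below them for 16, where 30.3% did.

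**Figure D1:**
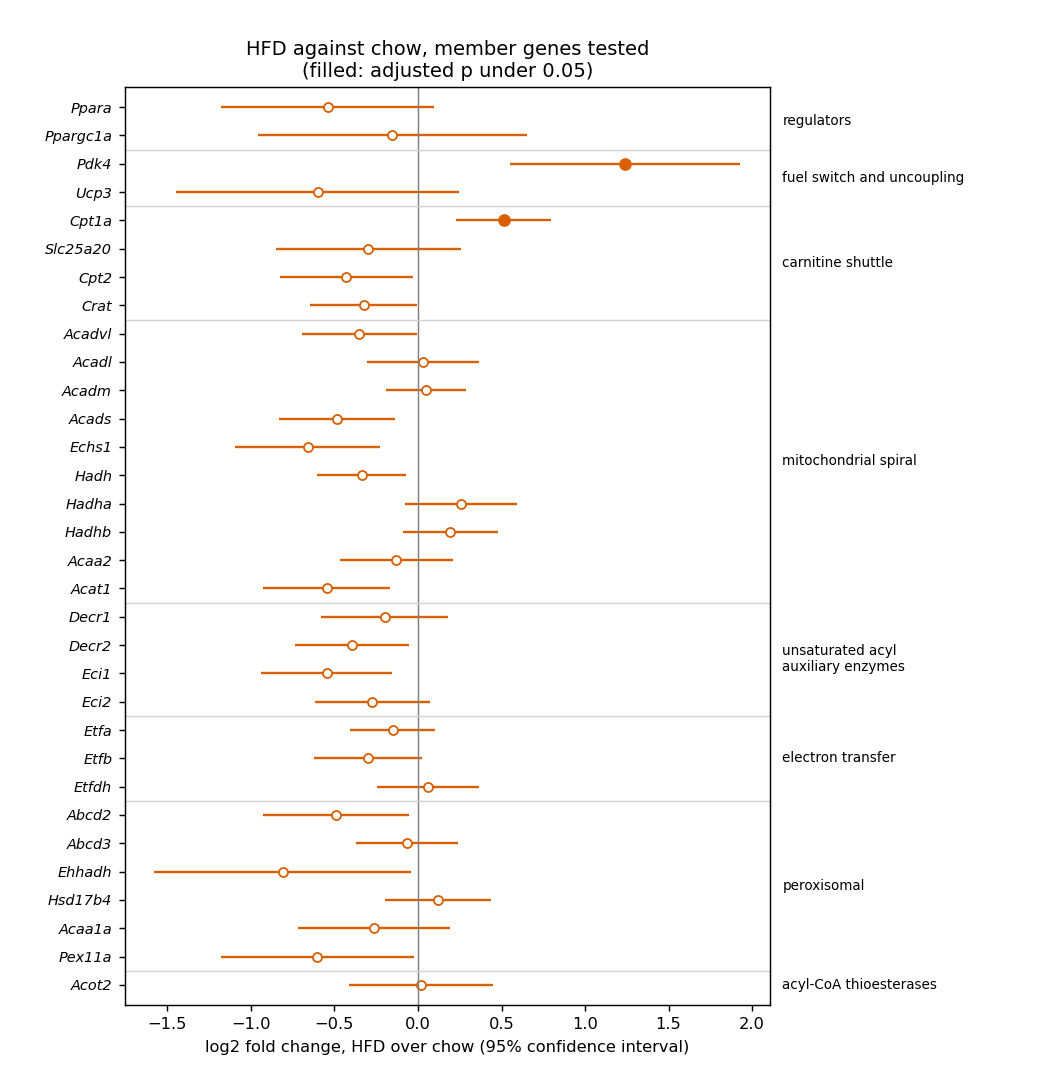
Log2 fold change of the 32 tested members, HFD over chow, on the x axis, with 95% confidence intervals as bars and the genes ordered by role. Filled points, Pdk4 and Cpt1a, passed an adjusted p under 0.05, and 23 of the 32 points lie left of zero.

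Pdk4 lies on chromosome 6 (5483351 to 5496278 on GRCm38.p6), and its signal was 831 and 612 on the HFD arrays, against 318 and 286 on the chow arrays. Both HFD arrays were thus well above both chow arrays. It averaged 722 ± 155 with HFD and 302 ± 22.7 with chow (SD, n = 2 each), a 2.36-fold rise (log2 1.24, 95% CI 0.55 to 1.93, limma adjusted p 0.0421). The call of Pdk4 ended when either HFD array or either chow array was left out (log2 1.02 to 1.46, adjusted p 0.110 to 0.258), without the filter on dim probe sets and without the variance trend. Ucp3, a mitochondrial carrier of muscle and brown fat, stood beside it in the list of fuel switch and uncoupling. Its signal was 231 and 246 with HFD, against 591 and 222 with chow, so the groups overlapped (log2 −0.60, adjusted p 0.368). The high chow array was also the one with the higher summed signal of brown and beige fat markers, 2401 against 876 on the other chow array and 1279 and 1036 with HFD. Most of that sum came from Cox8b, at 1859 on the high chow array and 488 on the other. Of the same markers, Cidea (89.6 and 137) and Prdm16 (81.7 and 98.8) went the other way. The part of these markers in the Ucp3 values was not tested. Without chow array 1 Ucp3 was at 0.11, and without chow array 2 it was at −1.31 and called (adjusted p 0.0106).

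Cpt1a, on chromosome 19 (3322326 to 3385735), joins long acyl chains to carnitine on the outer mitochondrial membrane and sets the rate of their entry. It had a signal of 1639 and 1579 with HFD, against 1139 and 1117 with chow. The 2 arrays of each group were close together and the groups did not overlap. The rise was 1.43-fold (log2 0.51, 95% CI 0.23 to 0.80, limma adjusted p 0.0425). Cpt1a has 2 further, dimmer probe sets past the filter, which gave log2 0.07 and −0.42, and the mean of its probe sets gave 0.05 (adjusted p 0.887). The call also ended when any HFD, chow or candesartan array was left out (adjusted p 0.0677 to 0.256), with arrays centred on their medians (0.376), without the filter and without the variance trend.

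The promoters of Pdk4 and Cpt1a, the members called, are shown with that of Hadhb, which shares its upstream region with Hadha. They are RefSeq windows on GRCm38.p6 of 250 bases before and 50 bases after a start site, printed 5′ to 3′ on the gene's strand: Pdk4 at chr6:5496229-5496528 (minus strand), Cpt1a at chr19:3323051-3323350 (plus strand) and Hadhb at chr5:30155003-30155302 (plus strand). The start used for Cpt1a lies inside the annotated gene. Capitals mark matches on either strand to 4 of the motifs searched: AGGTCA, the half-site of PPAR and related nuclear receptors, the CCAAT box CCAAT, the GC box GGGCGG and the TATA box TATAAA.
Pdk4: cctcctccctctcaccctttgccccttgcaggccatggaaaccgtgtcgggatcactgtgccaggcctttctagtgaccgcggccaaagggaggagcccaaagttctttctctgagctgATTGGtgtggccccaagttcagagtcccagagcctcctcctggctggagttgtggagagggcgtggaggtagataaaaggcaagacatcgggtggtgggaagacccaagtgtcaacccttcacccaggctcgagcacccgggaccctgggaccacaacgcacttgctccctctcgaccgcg
Cpt1a: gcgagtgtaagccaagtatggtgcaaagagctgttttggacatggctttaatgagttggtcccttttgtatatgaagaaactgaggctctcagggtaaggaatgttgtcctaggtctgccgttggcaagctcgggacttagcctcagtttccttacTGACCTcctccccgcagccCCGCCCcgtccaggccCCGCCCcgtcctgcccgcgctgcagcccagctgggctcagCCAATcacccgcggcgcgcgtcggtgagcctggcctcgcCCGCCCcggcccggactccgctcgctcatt
Hadhb: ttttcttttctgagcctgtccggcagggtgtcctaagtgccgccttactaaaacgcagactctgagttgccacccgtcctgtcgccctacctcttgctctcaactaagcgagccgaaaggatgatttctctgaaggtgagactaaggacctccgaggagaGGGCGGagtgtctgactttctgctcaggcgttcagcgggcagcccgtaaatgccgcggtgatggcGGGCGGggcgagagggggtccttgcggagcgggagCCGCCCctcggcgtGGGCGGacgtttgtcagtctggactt
The Pdk4 window holds 1 match, an inverted CCAAT box, and the Cpt1a window holds 1 inverted half-site, 1 CCAAT box and 3 inverted GC boxes, while the Hadhb window holds 4 GC boxes.

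Of the 34 genes, 27 had a window in the RefSeq table. The GC box was present in 19 of the 27 (70.4%), against 38.2% of all 27025 genes with a window. TATAAA was in 0 of 27, against 15.7%. The windows of these genes had a median GC content of 60.7%, against 52.7% over all windows. The half-site was found in 5 of 27 (18.5%: Cpt1a, Acadm, Acadvl, Echs1 and Ucp3), against 18.1% of all, and the CCAAT box in 11 (40.7%), against 41.1%. A pair of half-sites in the same direction 1 base apart, the arrangement PPARα binds, was in 0 of 27 genes and 0.0481% of all. The oestrogen-related receptor element TCAAGGTCA, which contains a half-site, was in 0 and 0.466%. These matches describe the letters of the windows and say nothing of binding. The start sites of Hadha and Hadhb lie 273 bases apart on opposite strands of chromosome 5, and their windows overlap by 228 bases.

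The rest of the carnitine shuttle lay below chow with HFD. Slc25a20, the carrier that brings acylcarnitines across the inner membrane, had a signal of 1376 and 1105 with HFD, against 1950 and 1178 with chow, and the groups overlapped (log2 −0.30, adjusted p 0.497). Cpt2, which returns the acyl group to CoA inside the mitochondrion, was at −0.43 (adjusted p 0.175) with no overlap. Crat, which moves short acyl groups and acetyl groups onto carnitine, had 879 and 717 with HFD, against 1027 and 963 with chow. Its groups did not overlap either, and the difference did not pass (log2 −0.32, adjusted p 0.199).

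In the spiral of mitochondrial oxidation 6 of 10 genes lay below zero and 4 above, with 0 called. Echs1, the short-chain enoyl-CoA hydratase of the second step, had the smallest p of the members below zero. Its signal was 2869 and 2738 with HFD, against 5186 and 3791 with chow. The HFD arrays were both lower, and the chow arrays lay far apart (log2 −0.66, 95% CI −1.10 to −0.23, adjusted p 0.0727). Acat1, the thiolase that also handles ketone bodies and isoleucine breakdown, was at −0.55 (0.0834), Acads, the short-chain acyl-CoA dehydrogenase, at −0.49 (0.0917), and Hadh, the short-chain hydroxyacyl-CoA dehydrogenase, at −0.34 (0.120). The groups of these 3 did not overlap. Hadh was called lower with quantile normalization (limma adjusted p 0.0450). With a term for the replicate number Echs1, Acat1 and Acads were called lower (limma adjusted p 0.0186, 0.0311 and 0.0301). Echs1 was called lower with quantile normalization (adjusted p 0.0387) and without chow array 2 (0.0472), telmisartan array 1 (0.0250) or telmisartan array 2 (0.0245). Acat1 was called lower with quantile normalization, with only the 2 groups fitted and without either telmisartan array, at adjusted p 0.0176 to 0.0494. Acadvl, the very-long-chain dehydrogenase, was at −0.35 (0.198) with no overlap, and Acaa2, a thiolase, at −0.13 (0.648).

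The other 4 spiral genes lay above zero, none past the threshold. Acadm, the medium-chain acyl-CoA dehydrogenase, had 6028 and 5535 with HFD, against 5525 and 5660 with chow, with overlap (log2 0.05, 95% CI −0.19 to 0.29, adjusted p 0.834), and was at −0.05 with arrays centred on their medians. Hadha, the alpha subunit of the trifunctional protein, had 1876 and 1687 with HFD, against 1698 and 1303 with chow, again with overlap (log2 0.26, adjusted p 0.328). Hadhb, the beta subunit of the same complex, averaged 4466 ± 106 with HFD and 3923 ± 552 with chow (SD, n = 2 each) without overlap (log2 0.19, adjusted p 0.385). Its 2 other probe sets gave −0.38 and −0.10, and the mean of the 3 gave −0.10 (adjusted p 0.707). Acadl, the long-chain dehydrogenase, was at 0.03 (adjusted p 0.926).

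All 4 enzymes that prepare unsaturated acyl chains for the spiral lay below chow with HFD, none past the threshold. Eci1, the main mitochondrial enoyl-CoA isomerase, was at −0.55 (95% CI −0.94 to −0.16, limma adjusted p 0.0926). It was called lower with a term for the replicate number (0.0358). The peroxisomal reductase Decr2 was at −0.40 (0.148), the isomerase Eci2 at −0.27 (0.315) and the mitochondrial reductase Decr1 at −0.20 (0.508). Of the 3 electron transfer genes, Etfb, a subunit of the flavoprotein that takes electrons from the dehydrogenases, had 3953 and 3937 with HFD, against 5218 and 4510 with chow, without overlap (log2 −0.30, adjusted p 0.246). Its partner Etfa was at −0.15 (0.445), and Etfdh, which passes the electrons on to ubiquinone, at 0.06 (0.837).

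Of the 6 peroxisomal genes, 5 lay below zero and 0 were called. Ehhadh, the peroxisomal bifunctional enzyme, had 331 and 322 with HFD, against 826 and 398 with chow, without overlap (log2 −0.81, 95% CI −1.58 to −0.04, adjusted p 0.185). The size of this difference rests on chow array 1, and without chow array 2 it was −1.34 and called (adjusted p 0.0416). Abcd2, a transporter of very long chains into peroxisomes, had 1738 and 1530 with HFD, against 1864 and 2815 with chow (log2 −0.49, adjusted p 0.160). Its groups did not overlap, and without chow array 1 it was at −0.79 and called (adjusted p 0.0355). Abcd3, a transporter for branched chains and a major peroxisomal membrane protein, had 1346 and 1194 with HFD, against 1396 and 1260 with chow, with overlap (log2 −0.07, adjusted p 0.815). Pex11a, which helps peroxisomes divide, was at −0.60 (0.189), the thiolase Acaa1a at −0.27 (0.459), and Hsd17b4, the multifunctional enzyme for branched chains, at 0.12 (0.653). The mitochondrial thioesterase Acot2 was at 0.02 (0.963).

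Both transcriptional regulators lay below chow with HFD, and neither passed. Ppara, which encodes PPARα, had 89.3 and 70.8 with HFD, against 124 and 108 with chow, without overlap (log2 −0.54, 95% CI −1.18 to 0.10, adjusted p 0.283). Ppargc1a, which encodes PGC-1α, had 59.9 and 39.9 with HFD, against 46.2 and 64.0 with chow, and its groups overlapped (log2 −0.15, adjusted p 0.838). Both are dim, and the Ppargc1a difference was at 0.08 without chow array 2 and 0.14 without HFD array 2.

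**Figure D2:**
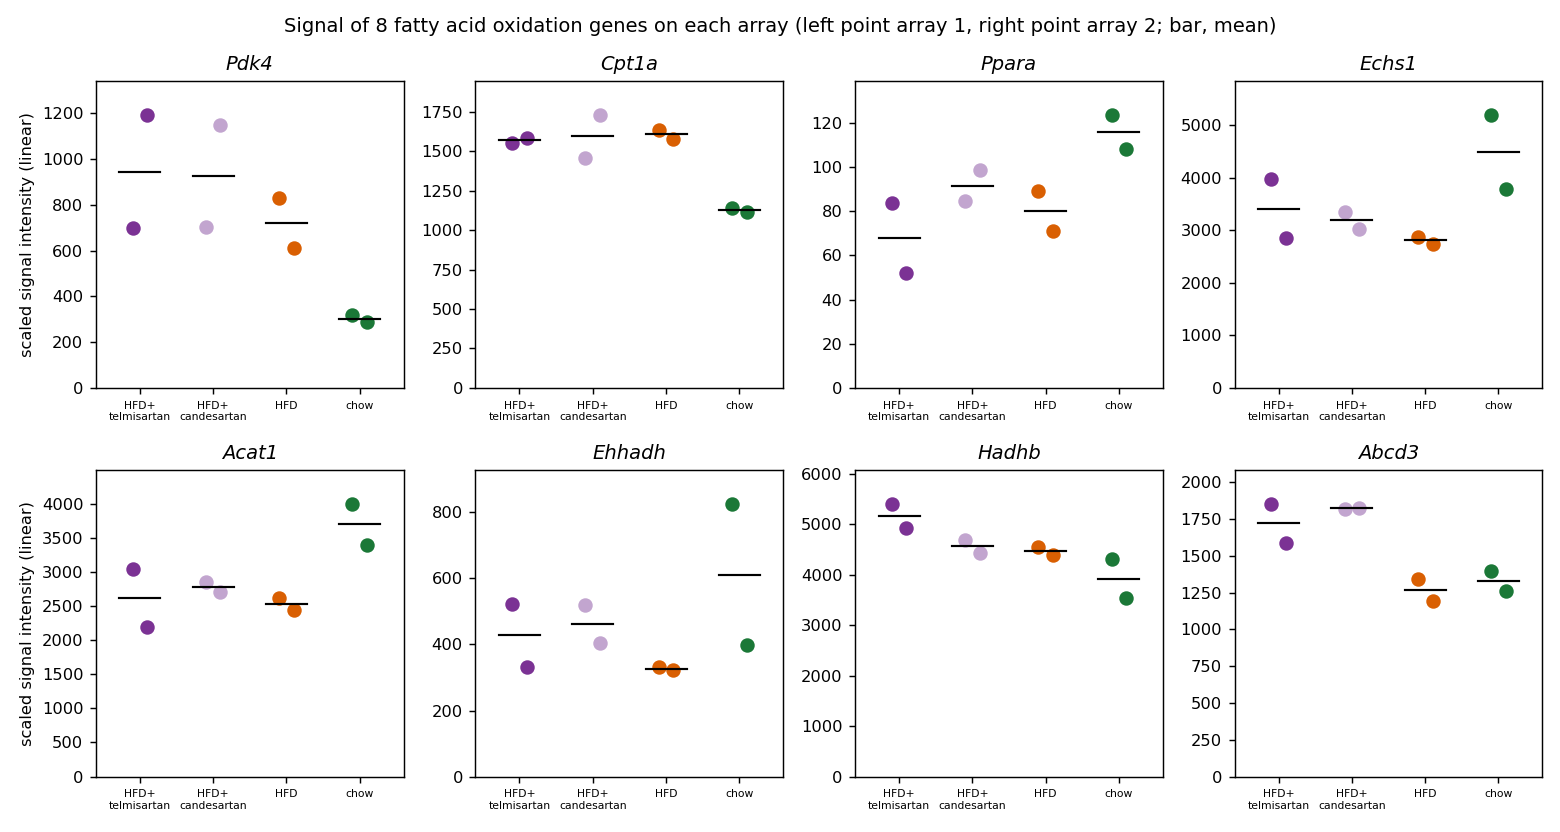
Scaled signal intensity (linear y axis from 0) of 8 members on each of the 8 arrays, with groups on the x axis and the mean as a bar; Acat1 and Hadhb were chosen for the plot after their values were seen. Pdk4 and Cpt1a are higher in all 3 groups on HFD than with chow, Echs1 and Acat1 have their highest array with chow, and Abcd3 is highest on the 4 drug arrays.

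Each drug against HFD answers whether treatment altered these genes in mice on that diet. No member passed the test with either drug, and no gene did among the 11232 (0% called with telmisartan and 0% with candesartan). Most members nevertheless lay above HFD: 25 of 32 with telmisartan (median log2 0.20, against −0.01 over all genes) and 29 of 32 with candesartan (median 0.12, against 0.00 over all genes). Both telmisartan arrays lay above both HFD arrays for 16 members and below them for 2, Abcd2 and the dim Ppargc1a. Of all genes 18.5% were higher and 19.5% lower. For candesartan the counts were 12 higher and 0 lower, where 17.9% of all genes were higher and 15.5% lower. At an unadjusted p under 0.05 each drug had 1 member, where 6.20% of all genes were with telmisartan and 1.25% with candesartan. Adipocyte markers lay above HFD in 6 of 6 tested with telmisartan (median log2 0.13, 3 without overlap). With candesartan 5 of 6 did (median 0.03, 0 without overlap), and 0 were called with either drug. Some marker lists of other cell types also stood apart from HFD, with none of their genes called. Mesothelial markers lay below HFD in 4 of 4 with telmisartan (median log2 −0.94, 1 of 4 without overlap) and in 4 of 4 with candesartan (−0.22, 0 of 4), and summed to 440 and 1711 with telmisartan, 1205 and 2244 with candesartan, and 1684 and 2237 with HFD. Skeletal muscle markers summed to 1380 and 904 with telmisartan, 970 and 586 with candesartan, and 688 and 646 with HFD. Most of these sums came from actin gene Acta1, the 1 of 6 past the filter, named after its value was seen. Its signal was 1312 and 843 with telmisartan, 893 and 517 with candesartan, and 625 and 540 with HFD. Acta1 was at 0.86 with telmisartan and 0.23 with candesartan (adjusted p 0.766 and 1). Of 5 brown and beige markers tested, 3 lay above HFD with telmisartan and 5 with candesartan. With telmisartan, Cidea and Prdm16 lay below HFD without overlap (log2 −0.64 and −0.42). The summed signals, mostly from Cox8b, were 1693 and 1730 with telmisartan, 1410 and 1705 with candesartan, and 1279 and 1036 with HFD. The part of these cell types in the members' shift was not tested. The telmisartan median of the members was 0.08 without telmisartan array 1. With arrays centred on their medians it was 0.47, and the median of all genes moved by 0.27 with it. With quantile normalization it was 0.13, where the median of all genes was 0.04, so its distance from all genes depended on the scaling.

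**Figure D3:**
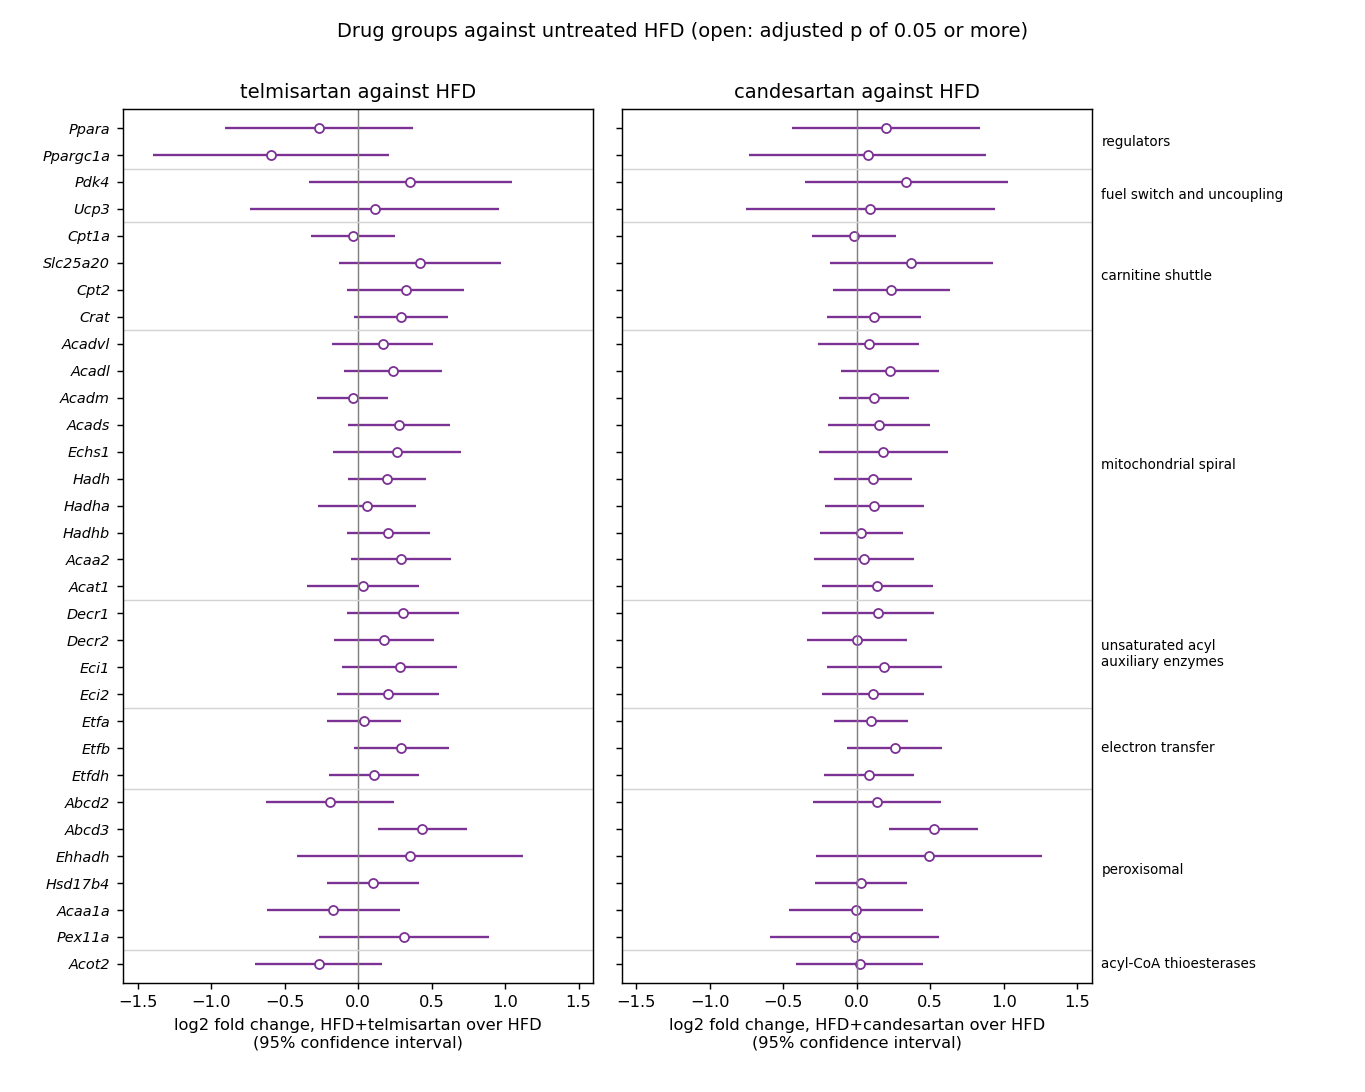
Log2 fold change of the 32 tested members, telmisartan over HFD (left panel) and candesartan over HFD (right panel), with 95% confidence intervals. No point passed an adjusted p under 0.05, and the interval of Abcd3 is the only one clear of zero in either panel.

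Abcd3 was that 1 member with each drug. Its signal was 1854 and 1586 with telmisartan, 1818 and 1826 with candesartan, and 1346 and 1194 with HFD. All 4 drug arrays were above both HFD arrays and above both chow arrays. The log2 fold change was 0.44 with telmisartan (95% CI 0.13 to 0.74, limma adjusted p 0.766) and 0.52 with candesartan (95% CI 0.22 to 0.83, adjusted p 1). The same 2 HFD arrays enter both values.

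The members with the next smallest p belong to the carnitine shuttle and to electron transfer. Crat had 967 and 975 with telmisartan, 829 and 894 with candesartan, and 879 and 717 with HFD. The telmisartan arrays lay above HFD (log2 0.29, 95% CI −0.03 to 0.61, adjusted p 0.766) and the candesartan arrays overlapped it (0.12, adjusted p 1). Etfb had 5456 and 4290 with telmisartan, 5000 and 4442 with candesartan, and 3953 and 3937 with HFD. Both drug groups were above HFD without overlap, at 0.29 (adjusted p 0.766) and at 0.26 with candesartan (adjusted p 1). Slc25a20 had 1881 and 1448 with telmisartan and 1496 and 1699 with candesartan, against 1376 and 1105 with HFD. It too was above HFD without overlap, at 0.42 with telmisartan and 0.37 with candesartan, with intervals that include zero.

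In the spiral, 9 of 10 genes lay above HFD with telmisartan and 10 of 10 with candesartan, by −0.04 to 0.29 and by 0.03 to 0.22 on the log2 scale. Echs1 had 3969 and 2849 with telmisartan and 3347 and 3020 with candesartan, against 2869 and 2738 with HFD. The telmisartan arrays overlapped HFD and the candesartan arrays did not (0.26 and 0.18). Acadm had 5963 and 5316 with telmisartan and 6366 and 6166 with candesartan, against 6028 and 5535 with HFD. Only the candesartan arrays were clear of HFD, by 0.12 (95% CI −0.12 to 0.36). Hadha had 1840 and 1871 with telmisartan and 1873 and 1991 with candesartan, against 1876 and 1687 with HFD, overlapping in both cases. The 4 enzymes for unsaturated chains lay 0.18 to 0.31 above HFD with telmisartan and 0.00 to 0.19 with candesartan.

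Ehhadh had 523 and 332 with telmisartan and 520 and 404 with candesartan, against 331 and 322 with HFD. The lower telmisartan array was level with HFD (0.35, 95% CI −0.42 to 1.12), and candesartan was at 0.49 (95% CI −0.28 to 1.26). Cpt1a had 1554 and 1586 with telmisartan and 1459 and 1730 with candesartan, against 1639 and 1579 with HFD. Its differences from HFD were −0.04 (95% CI −0.32 to 0.25) and −0.02 (95% CI −0.30 to 0.27). Pdk4 had 698 and 1192 with telmisartan, 705 and 1151 with candesartan, and 831 and 612 with HFD. Array 1 of each drug group lay within the HFD range and array 2 above it, and the differences (0.36 and 0.34) did not pass. Without array 2 of the drug group they were −0.03 with telmisartan and −0.02 with candesartan.

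The drugs were matched in dose and duration, and telmisartan against candesartan tests whether their effects differ. No member and no gene passed (0% called, 4.90% of all genes and 0 members at an unadjusted p under 0.05). Of the 32 members, 20 lay above zero and 12 below, with a median of 0.03, against −0.01 over all genes. The telmisartan arrays lay above the candesartan arrays for 4 members and below them for 6, where 15.6% and 16.6% of all genes did. The smallest p was that of Ppargc1a, with 29.7 and 35.3 with telmisartan, against 59.6 and 44.4 with candesartan. These groups did not overlap, and the interval of the log2 difference, −1.47 to 0.14, leaves room for no difference and for a large one (adjusted p 0.924). The Ppargc1a probe set passed the filter narrowly, at a mean signal of 45.9 where the cut was 40.5. Both telmisartan arrays lay under that cut. Its other probe sets, at mean signals of 15.5 to 20.4, did not pass. Abcd2 had 1415 and 1440 with telmisartan, against 1929 and 1669 with candesartan (log2 −0.33, 95% CI −0.77 to 0.11). Ppara had 83.7 and 52.1 with telmisartan, against 84.5 and 98.5 with candesartan (log2 −0.47, 95% CI −1.10 to 0.17), and its arrays did not overlap, by a margin of under 1 signal unit. Pdk4 differed by 0.02, with an interval of −0.67 to 0.71.

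Against chow, each drug group held 1 called member, Pdk4. With telmisartan it was 3.02-fold higher (log2 1.60, 95% CI 0.91 to 2.28, limma adjusted p 0.0162) and with candesartan 2.98-fold (1.58, 95% CI 0.89 to 2.27, 0.0200). All genes called higher made up 4.96% with telmisartan and 4.48% with candesartan, and all called lower 3.48% and 2.11%, where no member was. The Pdk4 call ended without telmisartan array 2 (log2 1.21, adjusted p 0.0545) or chow array 2 (1.52, 0.0763) in the telmisartan comparison. It ended without candesartan array 2 (1.22, 0.181), chow array 1 (1.65, 0.0639) or chow array 2 (1.50, 0.0805) in the candesartan comparison, and without the filter in both.

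Cpt1a narrowly missed the threshold in both drug groups against chow, at 0.48 with telmisartan (adjusted p 0.0521) and 0.49 with candesartan (0.0534), with no overlap. On the mean of its probe sets the telmisartan value was −0.07. Abcd2 was at −0.68 with telmisartan (95% CI −1.12 to −0.25, adjusted p 0.0636) and at −0.35 with candesartan (0.338). Abcd3 was at 0.37 (0.128) and 0.46 (95% CI 0.15 to 0.76, 0.0827). Ppara was at −0.81 with telmisartan (95% CI −1.45 to −0.17, adjusted p 0.117) and −0.34 with candesartan (0.533). Members whose arrays did not overlap chow numbered 7 higher and 8 lower with telmisartan, where 22.4% and 25.2% of all genes did so, and 7 higher and 13 lower with candesartan, where 25.8% and 28.0% did. The median of the 32 was −0.11 with telmisartan and −0.12 with candesartan, against −0.03 and −0.02 over all genes. Without chow array 1 these medians were 0.01 and 0.04, and without chow array 2 they were −0.22 and −0.24.

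**Figure D4:**
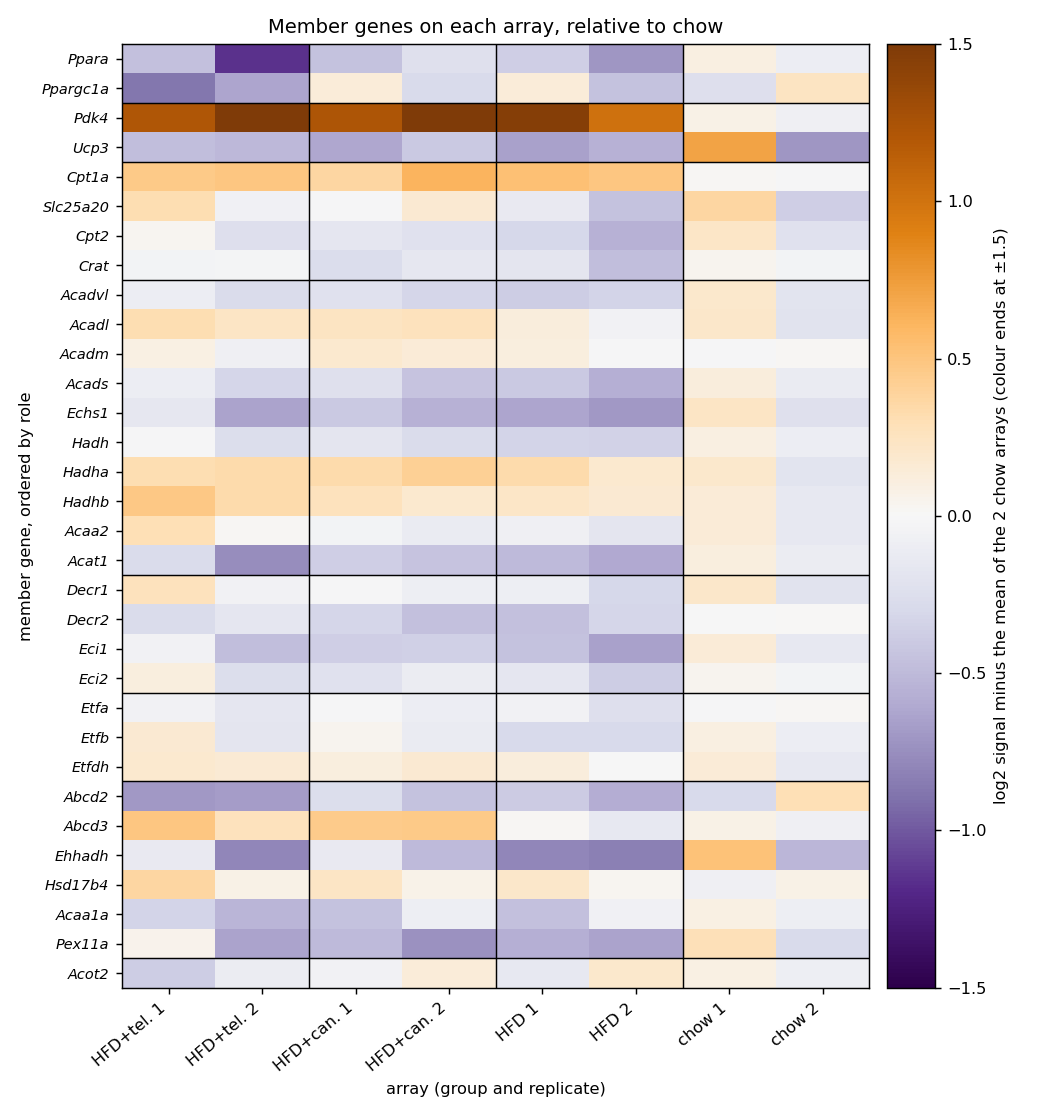
Log2 signal of each tested member on each array minus the mean of both chow arrays (colour, ending at 1.5 either way), with genes by role down the page and arrays across. Pdk4 and Cpt1a are brown on all 6 arrays of mice on HFD, and the chow arrays differ from each other in many rows.

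In 3 of the 4 groups most members differed between the 2 mice in the same direction. Array 1 lay above array 2 for 24 of 32 members with telmisartan, 18 with candesartan, 27 with HFD and 26 with chow. Over all genes that share was 48.6%, 51.6%, 49.4% and 50.4% in the same groups. The median difference between the arrays over the members was 0.21 with telmisartan, 0.06 with candesartan, 0.14 with HFD and 0.22 on the log2 scale with chow. In size, the medians between the drugs and HFD, 0.20 and 0.12, lie within this range. The median of HFD against chow, −0.29, lies beyond it. The range is of differences between single arrays, and these medians compare means of 2 arrays, which vary less. It is therefore no test of them. Relative to chow, the median of the 10 spiral genes was 0.04 and −0.16 on the telmisartan arrays, −0.11 and −0.19 with candesartan, −0.21 and −0.25 with HFD, and 0.15 and −0.15 on the chow arrays themselves. The macrophage sum was lower on array 1 than on array 2 in every group, at 24467 and 35722 with telmisartan, 26920 and 32127 with candesartan, 30220 and 30861 with HFD, and 10862 and 13007 with chow. Between the 2 telmisartan arrays the mesothelial sum was 440 and 1711 and the T and B cell sum 352 and 750. The muscle sum, mostly Acta1, was 1380 and 904. Their part in the differences between mice was not tested.

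For 15 of the 32 members, more than 1 probe set was bright enough to test. For HFD against chow the probe sets of a gene had the same sign in 12 of the 15 and differed in Cpt1a, Hadhb and Hsd17b4, where the brightest was above zero and at least 1 other below. Ppara, Acat1, Abcd2 and Pex11a were below zero on every probe set. With telmisartan against HFD the signs were the same in 12 of 15, with candesartan in 10 of 15.

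**Figure D5:**
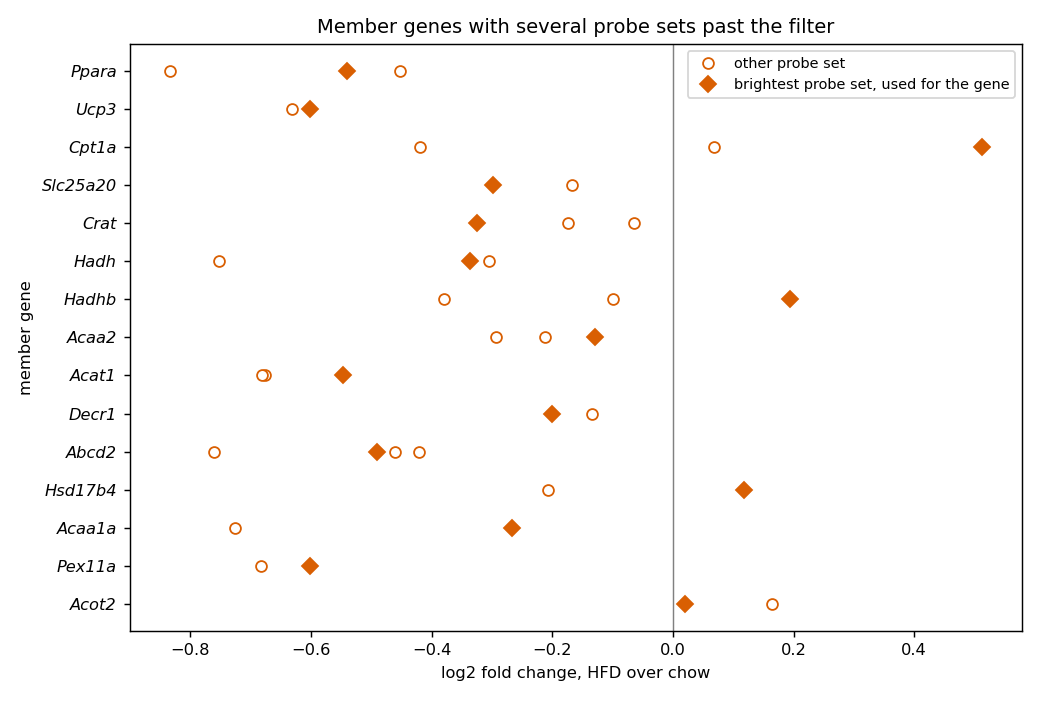
Log2 fold change, HFD over chow, of each probe set past the filter for the 15 members with more than 1, with the brightest probe set as a diamond and the others as circles. The 3 probe sets of Cpt1a run from −0.42 to 0.51 and lie on both sides of zero, while those of Abcd2 and Acat1 all lie below it.

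A list of 62 other genes of the pathway, of which 50 were tested, lay mostly below chow as well. With HFD against chow 1 was called higher and 5 lower, 37 were below zero and the median was −0.25. Over all genes 5.15% were called higher and 2.95% lower. Plin2, a coat protein of lipid droplets and a PPAR target, rose (a signal of 10999 and 11421 with HFD, against 6317 and 5389 with chow, log2 0.94, adjusted p 0.00243). The 5 that fell were Pparg, the main regulator of fat cells (log2 −0.81, adjusted p 0.0333), Acadsb (−0.68, 0.0344) and Ivd (−0.97, 0.0418), dehydrogenases of branched-chain amino acid breakdown, Phyh, which starts the oxidation of phytanic acid in peroxisomes (−0.61, 0.0361), and Prkaa1, a catalytic subunit of AMP-activated kinase (−1.02, 0.0493). Of the acyl-CoA synthetases, 3 of 5 were tested, and all 3 were above zero with 0 called.

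With each drug against HFD 0 of the 50 were called, and 36 were above zero, with medians of 0.12 for telmisartan and 0.07 for candesartan. Against chow 2 were called higher and 5 lower with telmisartan, and 1 higher and 0 lower with candesartan. All genes called higher and lower made up 4.96% and 3.48% with telmisartan and 4.48% and 2.11% with candesartan. Plin2 rose in both (1.14 and 0.98). Angptl4, a secreted inhibitor of lipoprotein lipase and a PPAR target, had 6967 and 6694 with telmisartan, against 1782 and 4008 with chow (log2 1.35, adjusted p 0.0319). The HFD arrays stood at 6011 and 5338, above chow without overlap and short of the threshold (log2 1.08, adjusted p 0.0686). Phyh, Acadsb, Ivd and Prkaa1 fell with telmisartan as they did with HFD (log2 −0.57, −0.78, −1.07 and −1.04 against chow). Pdk1, another pyruvate dehydrogenase kinase, fell with telmisartan against chow (log2 −1.08, adjusted p 0.0392), opposite in direction to Pdk4. Its signal was 255 and 268 with telmisartan, against 746 and 410 with chow, where the arrays lay far apart. The HFD arrays, at 375 and 351, were also below both chow arrays, and candesartan stood at 329 and 417.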

How the data were processed

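Total RNA of epididymal fat was hybridized to Mouse Genome 430 2.0 arrays. For each probe set the authors deposited a linear intensity, which the series design text credits to GeneChip Analysis Suite. Its summary algorithm and scaling were not given in the sources used here. Arrays, whose 2%-trimmed means spanned 1.48 times, were rescaled to the same trimmed mean. Signals under 6.69, the 20th percentile, were set to that floor before log2. On the probe sets used for the 32 members tested, 0 values lay there. Some dimmer member probe sets, none of them past the filter, had values at the floor. Probe sets at or above the 50th percentile of mean log2 signal were kept (22519), and for each gene the brightest one with 1 symbol was used (11232 genes). Of the probe sets, 34958 had 1 symbol, 932 several, and 9160 were not listed in the annotation.

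Differences were tested two-sided with limma 3.58.1 in R 4.3.3, with 4 group means, 4 residual degrees of freedom and a variance trend, and p-values were adjusted over all genes. The script was tested on simulated data. With 2 arrays per group, which limits the precision, an exact permutation test could not reach 0.05. The 6 comparisons were the diet against chow, both drug groups against HFD and against chow, and the drugs against each other. No source pairs mice across groups. Signals on each array are given for members called in any comparison, for the 3 with the smallest p in each, and for Ppara, Ppargc1a, Cpt1a, Pdk4, Acadm, Hadha and Ehhadh. The rule also names Cpt1b, which has no value. Genes outside the members are named from the pathway list where called. The markers Acta1, Cox8b, Cidea and Prdm16 were named after their values were seen. Members and lists were chosen with earlier results of these data known. Alternatives covered scaling, floor, filter, probe sets, variance, the arrays fitted and a replicate term. Promoter sequences and gene positions are from RefSeq on GRCm38.p6. Figures were drawn with matplotlib 3.10.9 in Python 3.11.15.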

Additional observations from a re-analysis of the deposited data

How the results depend on the processing

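Of 20 alternatives, 8 of them leaving out 1 array, the members called in HFD against chow (2) numbered 5 with quantile normalization (Pdk4 and Cpt1a higher, Echs1, Acat1 and Hadh lower), 1 with median centring, 1 with the mean of the probe sets, 0 without the filter, 0 without the variance trend, and 0 to 5 with an array left out. The 5 came without either telmisartan array (2 higher, and Echs1, Acat1 and Eci1 lower) and the 0 without either HFD array. Telmisartan against chow (1) had 2 with the mean of the probe sets, 2 with quantile normalization, 0 without the filter and 0 to 3 with an array left out, and candesartan against chow (1) had 0 without the filter and 0 to 3. With a replicate block the counts were 6 for HFD (2 higher, and Echs1, Acat1, Acads and Eci1 lower), 4 for telmisartan (3 higher, Acat1 lower) and 3 for candesartan against chow (all higher). Deviations of same-numbered arrays correlated at −0.04 to 0.21 over all genes, and no source pairs the mice. Whether same-numbered arrays share more than a number was not tested. Where 1 array is left, it is assumed to vary like the other groups.

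Median centring moved the median of all genes by 0.27 for telmisartan and 0.15 for candesartan against HFD, 0.12 between the drugs and 0.17 for telmisartan against chow. The member medians moved with it, to 0.47, 0.27, 0.15 and 0.062. With quantile normalization the member median was 0.13 (all genes 0.038) for telmisartan and 0.097 (all genes 0.020) for candesartan against HFD. Between the drugs it was 0.0094 (all genes 0.0195). With an array left out, member medians ran from −0.36 to −0.17 for HFD against chow, 0.078 to 0.27 for telmisartan against HFD, 0.074 to 0.20 for candesartan against HFD, −0.062 to 0.15 between the drugs, −0.22 to 0.013 for telmisartan against chow and −0.24 to 0.039 for candesartan against chow. Of 836 values of single members, 24 changed sign, none of them a call. With median centring these were Acadm for HFD against chow (−0.053), Cpt1a against HFD with telmisartan (0.24) and candesartan (0.13), and between the drugs Cpt1a (0.10) and Abcd3 (0.032). With the mean of the probe sets they were Hadhb for HFD against chow (−0.10), Cpt1a for candesartan against HFD (0.22) and telmisartan against chow (−0.072), and with each probe set alone Hadhb (−0.38) and Cpt1a for candesartan against HFD (0.49). With an array left out, HFD against chow ran from −0.015 to 0.11 for Acadm, −0.45 to 0.14 for Ppargc1a, −1.31 to 0.11 for Ucp3 and −0.15 to 0.021 for Abcd3. Against HFD, Pdk4 ran from −0.031 to 0.74 with telmisartan and −0.017 to 0.69 with candesartan, and Cpt1a from −0.14 to 0.10 with candesartan. Between the drugs, Cpt1a ran from −0.14 to 0.11, Pdk4 from −0.37 to 0.40 and Abcd3 from −0.20 to 0.025.

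Over all genes, HFD against chow called 909, against 575 with median centring, 174 without the filter and 165 to 1611 with an array left out. Telmisartan against chow called 948, against 332 without the filter, 198 with only its 2 groups fitted and 528 to 1683 with an array left out. Candesartan against chow called 740, against 164 without the filter and 117 to 1315 with an array left out. Without the filter the drug comparisons called 4 (telmisartan with HFD), 6 (candesartan with HFD) and 6 genes (between the drugs). The share of calls that were higher was 58.8% for telmisartan and 68.0% for candesartan against chow, and 88.5% and 85.5% with median centring. The causes were not tested.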
